A study of Drosophila melanogaster with 12 samples.

Results

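The 9 chorion protein genes Cp7Fa, Cp7Fb, Cp7Fc, Cp36, Cp38, Cp15, Cp16, Cp18 and Cp19 were described in ovary RNA of Drosophila melanogaster. They were chosen by name from the 17768 genes of the deposited count table, with earlier results of these data known. All 9 were found by their symbols and passed the filter on low counts. RNA-seq compared whole ovaries of females aged 2 days that carried nanos-Gal4 and either UAS-Sfmbt RNAi (line Sfmbt RNAi-1, TRiP.HMS00473) or UAS-mCherry RNAi, a hairpin against a protein that flies do not make, with 3 biological replicates in each group. Sfmbt is a Polycomb protein that forms a complex with the DNA-binding protein Pho. The nanos-Gal4 driver is active in germline cells, so neither hairpin was directed to the somatic follicle cells. The control columns of the count table were identified by their letter and the Sfmbt RNAi columns by elimination, as described with the processing.

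Chorion proteins form the outer layer of the insect eggshell. Follicle cells, the somatic epithelium around each egg chamber, secrete first the yolk proteins, then the vitelline membrane and last the chorion, shortly before the egg is laid. To make enough chorion mRNA in that short time, follicle cells amplify the DNA of the chorion clusters by firing the same replication origins repeatedly, with the origin recognition complex, the licensing factor Double-parked and a complex that contains Myb. In textbook accounts Cp36 and Cp38 are transcribed early in chorion formation and the genes of the autosomal cluster later.

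The genes lie in 2 clusters, all on the plus strand of the BDGP6.28 build. Cp7Fa, Cp7Fb, Cp7Fc, Cp36 and Cp38 occupy 12.4 kb of the X chromosome, X:8470888-8483311, in that order. Cp18, Cp15, Cp19 and Cp16 occupy 5.81 kb of the left arm of chromosome 3, 3L:8726791-8732599, in that order. Their summed exon lengths are 1183, 2093, 1132, 1116 and 1249 bases on X and 649, 515, 651 and 522 bases on 3L.

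Libraries held 34057506 to 51297961 counted fragments, and chorion transcripts took 3.31%, 4.59% and 4.18% of them in mCherry RNAi replicates 1 to 3. In Sfmbt RNAi replicates 1 to 3 the shares were 0.791%, 2.16% and 1.46%. The fewest fragments behind any chorion value were 3254, for Cp7Fa in Sfmbt RNAi replicate 1, so counting error is small beside the spread between libraries. Sfmbt, the target, had 146, 122 and 123 CPM (library-scaled fragment counts, with the TMM factors of edgeR) in the control libraries and 43.8, 43.8 and 36.7 CPM after Sfmbt RNAi. The germline genes vas and osk had means of 173 and 188 CPM in mCherry RNAi, and the follicle cell yolk protein genes Yp1 and Yp2 had 4825 and 5607 CPM. In whole ovaries, fewer cells of a type and less RNA per cell cannot be told apart.

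All 9 chorion genes fell in Sfmbt RNAi ovaries, by 2.64-fold to 4.28-fold (edgeR quasi-likelihood test, Benjamini-Hochberg adjusted p = 0.00466 to 0.0463, n = 3 against 3). Their median log2 fold change (log2FC, Sfmbt RNAi over mCherry RNAi) was −1.60, beside −0.037 over the 9667 genes tested. All 9 were called with a log2FC of −1 or less, which 4.62% of tested genes were. Over all tested genes 34.7% were called at an adjusted p under 0.05, 19.4% as lower and 15.2% as higher in Sfmbt RNAi. In none of the 9 genes did the 3 libraries of one group overlap those of the other, and 27.6% of tested genes were separated in this way with Sfmbt RNAi lower. The 9 genes moved together from library to library, so these are not 9 independent results. They were also chosen with earlier results known, so the shares over all genes are background and not a test. With no scaling factor the calls over all genes split into 3012 higher and 879 lower, where the TMM fit had 1470 and 1880. That setting moved the median of all genes from −0.037 to 0.195, and all 9 chorion genes were still lower.

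**Figure D1:**
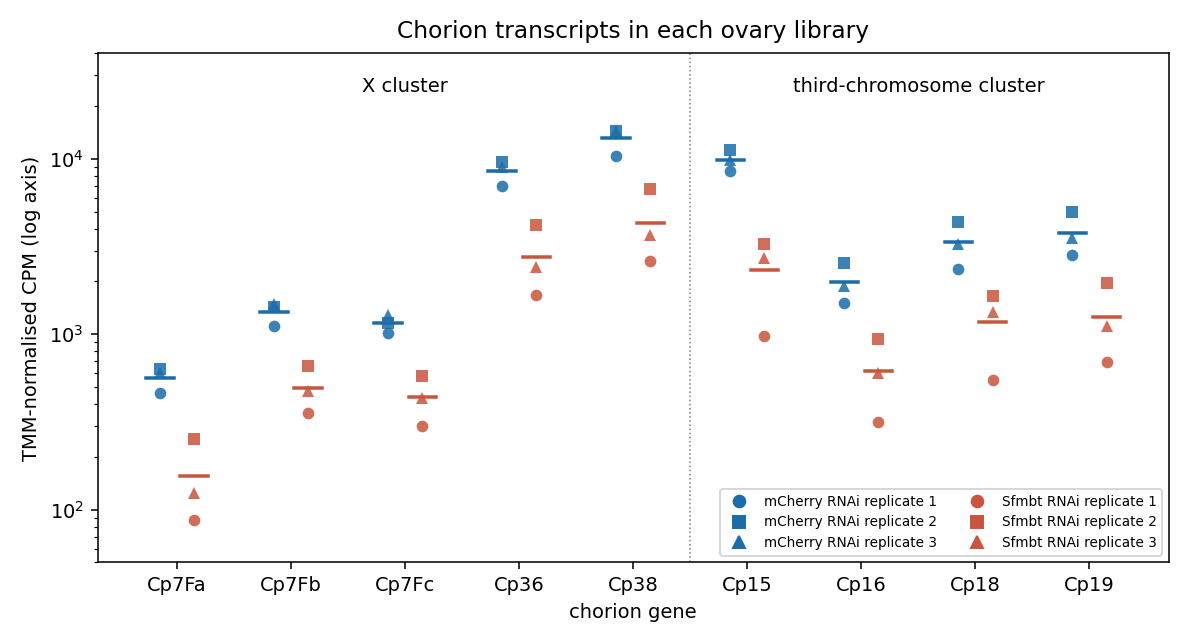
TMM-normalised CPM (log axis) of each chorion gene in each library, with blue for mCherry RNAi, red for Sfmbt RNAi, a marker shape per replicate and a bar at the group mean. In every gene the 3 Sfmbt RNAi libraries lie below the 3 control libraries, with Sfmbt RNAi replicate 1 lowest and replicate 2 highest of their group.

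On the X chromosome, Cp36 and Cp38 were the most abundant pair. Cp36, an early structural chorion protein gene, had 7045, 9588 and 9026 CPM in mCherry RNAi replicates 1 to 3 and 1668, 4179 and 2417 CPM in Sfmbt RNAi replicates 1 to 3. Its log2FC was −1.63 ± 0.34 (SE; edgeR adjusted p = 0.0112). Cp38, the other early gene, had 10443, 14517 and 14336 CPM in the control and 2604, 6729 and 3662 CPM in Sfmbt RNAi (log2FC −1.60 ± 0.36 SE, edgeR adjusted p = 0.0145). In both genes the highest Sfmbt RNAi library stayed below the lowest control library.

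The other X-linked genes were less abundant. Cp7Fa had 461, 637 and 601 CPM in the control and 86.7, 254 and 124 CPM in Sfmbt RNAi, and its log2FC of −1.87 ± 0.43 (SE; edgeR adjusted p = 0.0231) was the largest fall of the X cluster. Cp7Fb had 1116, 1426 and 1496 CPM against 356, 655 and 476 CPM (log2FC −1.44 ± 0.23 SE, edgeR adjusted p = 0.00466). Cp7Fc had 1018, 1156 and 1286 CPM against 299, 576 and 434 CPM (log2FC −1.40 ± 0.24 SE, edgeR adjusted p = 0.00563). Cp7Fb and Cp7Fc had the smallest falls of the 9 genes and the smallest standard errors. The coefficient of variation among Sfmbt RNAi libraries was 30.4% for Cp7Fb and 31.8% for Cp7Fc, and 46.8% to 56.7% for the other members.

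In the 3L cluster Cp15 stood out by its level. It had 8506, 11314 and 9908 CPM in mCherry RNAi replicates 1 to 3 and 978, 3256 and 2715 CPM in Sfmbt RNAi replicates 1 to 3. Its log2FC of −2.10 ± 0.44 (SE; edgeR adjusted p = 0.013) was the largest fall of the 9 genes. Sfmbt RNAi replicate 1 retained 9.87% of the control mean of Cp15, the lowest percentage of any chorion gene in any library.

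Cp16 had 1501, 2545 and 1882 CPM in the control and 315, 942 and 605 CPM in Sfmbt RNAi (log2FC −1.67 ± 0.43 SE, edgeR adjusted p = 0.0306). Cp19 had 2828, 4995 and 3546 CPM against 691, 1952 and 1112 CPM (log2FC −1.60 ± 0.42 SE, edgeR adjusted p = 0.0305). Cp18 had 2352, 4391 and 3292 CPM against 549, 1650 and 1336 CPM (log2FC −1.51 ± 0.45 SE, edgeR adjusted p = 0.0463). These 3 genes varied more among control libraries, with coefficients of variation of 26.7% to 30.5%, than the other 6 genes, with 11.6% to 17.6%.

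The calls depended on single libraries more than the directions did. Without Sfmbt RNAi replicate 3, 2 of the 9 genes were called, Cp7Fb and Cp7Fc, with edgeR adjusted p values of the 9 genes from 0.0307 to 0.137, and 28.5% of 9765 tested genes were called. Without mCherry RNAi replicate 2, 4 genes were called (Cp7Fb, Cp7Fc, Cp36 and Cp15), and without mCherry RNAi replicate 3 these and Cp38, 5 in all. The calls over all genes also dropped in the last 2 fits, to 1756 (18.0% of 9776 tested) and 1931 (19.3% of 9998) from 3350. Cp16, Cp18 and Cp19 lost their calls with no count filter and with no scaling factor, and Cp18 also with RLE scaling (edgeR adjusted p = 0.0581). All 9 genes were lower in Sfmbt RNAi in each of these fits.

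The chorion genes moved together from library to library. As a percentage of the control mean, the summed chorion CPM was 80.6%, 116% and 104% in mCherry RNAi replicates 1 to 3, whereas Sfmbt RNAi replicates 1 to 3 had 17.3%, 46.2% and 29.5%. In each gene Sfmbt RNAi replicate 1 was lowest, replicate 3 intermediate and replicate 2 highest, and among controls replicate 1 was lowest. The summed level was 35271, 50570 and 45373 CPM in the control and 7547, 20193 and 12881 CPM in Sfmbt RNAi. On the log2 scale the difference was −1.79 with a pooled SD of 0.54 (exact two-sided permutation test, p = 0.1, the smallest value that 3 against 3 libraries allow). After subtraction of group means, Pearson's r over the 6 libraries was 0.947 to 0.997 for the 10 pairs within the X cluster and 0.88 to 0.989 for the 6 pairs within the 3L cluster. For the 20 pairs across clusters it was 0.844 to 0.969. These are descriptions of 6 libraries, and all pairs share library and depth.

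Levels between genes were compared per length, as CPM per kb of summed exon. In the control the order was Cp15, Cp38, Cp36, Cp19, Cp18, Cp16, Cp7Fc, Cp7Fb and Cp7Fa, with means from 19241 ± 2726 down to 479 ± 78.6 CPM per kb (SD, n = 3). Cp15 ranked 2 and Cp38 ranked 6 among the 17768 genes. Each gene was above the next in 3 of 3 control libraries, but across libraries the ranges did not overlap only between Cp15 and Cp38, between Cp16 and Cp7Fc and between Cp7Fc and Cp7Fb. In Sfmbt RNAi the mean levels kept that order, from 4498 ± 2310 to 131 ± 74.2 CPM per kb (SD, n = 3), and Cp15 and Cp38 ranked 9 and 13. There only the ranges of Cp16 and Cp7Fc did not overlap, in Sfmbt RNAi replicate 1 Cp38 was above Cp15, and in replicate 3 Cp18, at 2059 CPM per kb, was above Cp19, at 1709 CPM per kb. The length of Cp7Fb counts exon sequence of all its annotated transcripts, so its level per length depends on that annotation.

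Cp15 gave 37.7%, 34.5% and 34.8% of the summed chorion CPM per kb in control libraries 1 to 3, whereas it gave 22.4%, 26.5% and 32.9% in the Sfmbt RNAi libraries. Its share was lower in each Sfmbt RNAi library than in any control library, a comparison singled out after the values were seen and not tested. The log2 ratio of Cp15 to the other 3L genes, per length, was 0.41 ± 0.21 in the control and −0.17 ± 0.25 in Sfmbt RNAi (SD, n = 3).

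The X and 3L clusters were compared as the ratio of their summed CPM per kb within each library, which does not depend on the scaling. The summed level per length was 16496, 22455 and 21925 for the X cluster and 27360, 41284 and 33364 for the 3L cluster in mCherry RNAi replicates 1 to 3. In Sfmbt RNAi replicates 1 to 3 it was 4087, 10169 and 5813 for X and 4410, 13667 and 10198 for 3L. The log2 ratio of X to 3L was −0.74 ± 0.14 in the control and −0.45 ± 0.35 in Sfmbt RNAi (SD, n = 3). The difference of 0.29 was close to the pooled SD of 0.27, and an exact two-sided permutation test gave p = 0.3. The Sfmbt RNAi libraries, at −0.11, −0.43 and −0.81, overlapped the control libraries, at −0.73, −0.88 and −0.61. With 3 libraries a group this test cannot give a p below 0.1, so it cannot decide whether the clusters fell differently. The difference was 0.12 without Sfmbt RNAi replicate 1 and 0.47 without replicate 3. It was 0.16 when the mean of log2 CPM over the genes of a cluster replaced the summed level. Cp15, the highest 3L gene per length, weighs most on the 3L sum and had a log2FC of −2.10. The other 3L genes had −1.67 to −1.51, within the −1.87 to −1.40 of the X genes.

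**Figure D2:**
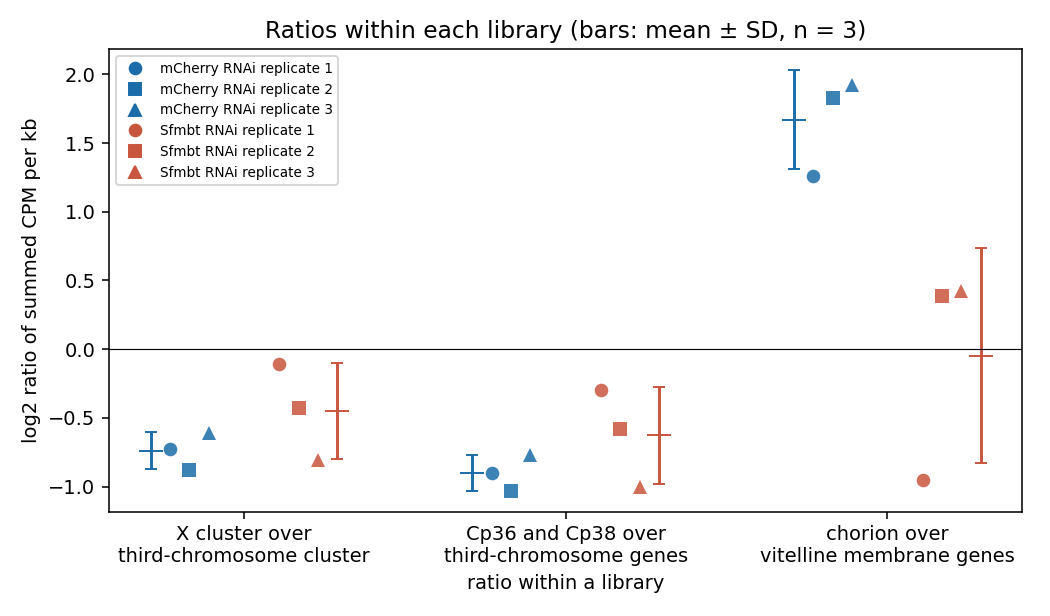
Log2 ratios of summed CPM per kb within each library, with blue for mCherry RNAi, red for Sfmbt RNAi and bars for the mean ± SD of 3 libraries. The groups overlap for the X to 3L ratio and for Cp36 and Cp38 over the 3L genes, and do not overlap for chorion over vitelline membrane genes.

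Early and late genes gave nearly the same comparison, because the early genes Cp36 and Cp38 lie on X and all the late genes on 3L, so timing and cluster cannot be told apart. The log2 ratio of early to late genes averaged −0.90 ± 0.13 in mCherry RNAi and −0.63 ± 0.35 in Sfmbt RNAi (SD, n = 3). The difference of 0.27 had an exact two-sided permutation p = 0.3, from a test with the same lower limit of 0.1. The difference was 0.11 without Sfmbt RNAi replicate 1, 0.46 without replicate 3, and 0.12 from the mean of log2 CPM over genes in place of the summed level. Cp15 weighs most on the late sum here too. With Cp15 and Cp18 alone as late the difference was 0.39 (exact two-sided permutation p = 0.4). Within the X cluster the log2 ratio of Cp7Fa, Cp7Fb and Cp7Fc together to Cp36 and Cp38 was −3.08 ± 0.08 in the control and −2.93 ± 0.18 in Sfmbt RNAi (SD, n = 3), a ratio added later and not tested.

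Genes for earlier products of the follicle cells were not called as lower by edgeR with the group as its only term. Of 7 vitelline membrane genes edgeR and DESeq2 called 0, beside 34.7% of all tested genes called by edgeR. With the replicate number as a block edgeR called 1 of the 7, beside 30.6% of all tested genes. Of these 7 genes 0 had an unadjusted edgeR p under 0.05, and their median log2FC was −0.02. The abundant members Vm26Aa, Vm34Ca and Vm26Ab had log2FC values of −0.07 ± 0.19, −0.24 ± 0.19 and 0.07 ± 0.19 (SE; edgeR adjusted p = 0.377 to 0.817). Within libraries the log2 ratio of chorion to vitelline membrane genes, per length, was 1.26, 1.83 and 1.92 in the control and −0.95, 0.39 and 0.42 in Sfmbt RNAi. The groups did not overlap, and the difference was −1.72 with a pooled SD of 0.61 (exact two-sided permutation test, p = 0.1, the smallest possible). The yolk protein genes Yp1, Yp2 and Yp3 had log2FC values of 0.54, 0.48 and −0.02 (edgeR adjusted p = 0.0759, 0.092 and 0.953). Of these 3 edgeR called 0, with 2 at an unadjusted p under 0.05, and Yp1 and Yp2 were called as higher by DESeq2, without Sfmbt RNAi replicate 3 (edgeR adjusted p = 0.0117 and 0.0176) and with no scaling factor (edgeR adjusted p = 0.00915 and 0.01).

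Of 11 other eggshell genes measured 5 fell, 0 rose and 6 were not called (median log2FC −0.50), beside 19.4% called as lower and 15.2% as higher over all tested genes. yellow-g and yellow-g2, yellow family genes expressed in follicle cells, fell with log2FC values of −1.88 ± 0.39 and −1.82 ± 0.30 (SE; edgeR adjusted p = 0.0158 and 0.00666). yellow-g2 had 892, 1133 and 1176 CPM in mCherry RNAi replicates 1 to 3 and 207, 445 and 255 CPM in Sfmbt RNAi replicates 1 to 3, in the same order of libraries within Sfmbt RNAi as the chorion genes. Femcoat, an eggshell gene of follicle cells, fell with a log2FC of −1.73 ± 0.41 (SE; edgeR adjusted p = 0.0251), and Fcp3C with −0.97 ± 0.29 (SE; edgeR adjusted p = 0.0472). Fcp3C was not called in 5 of the 6 fits that left out a library, the exception being the fit without Sfmbt RNAi replicate 2, nor with RLE scaling, no filter or no scaling factor. yellow-g and Femcoat lost their calls without Sfmbt RNAi replicate 3, mCherry RNAi replicate 2 or mCherry RNAi replicate 3 (edgeR adjusted p = 0.0522 to 0.105), and in each of these fits 2 genes of the list were called.

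**Figure D3:**
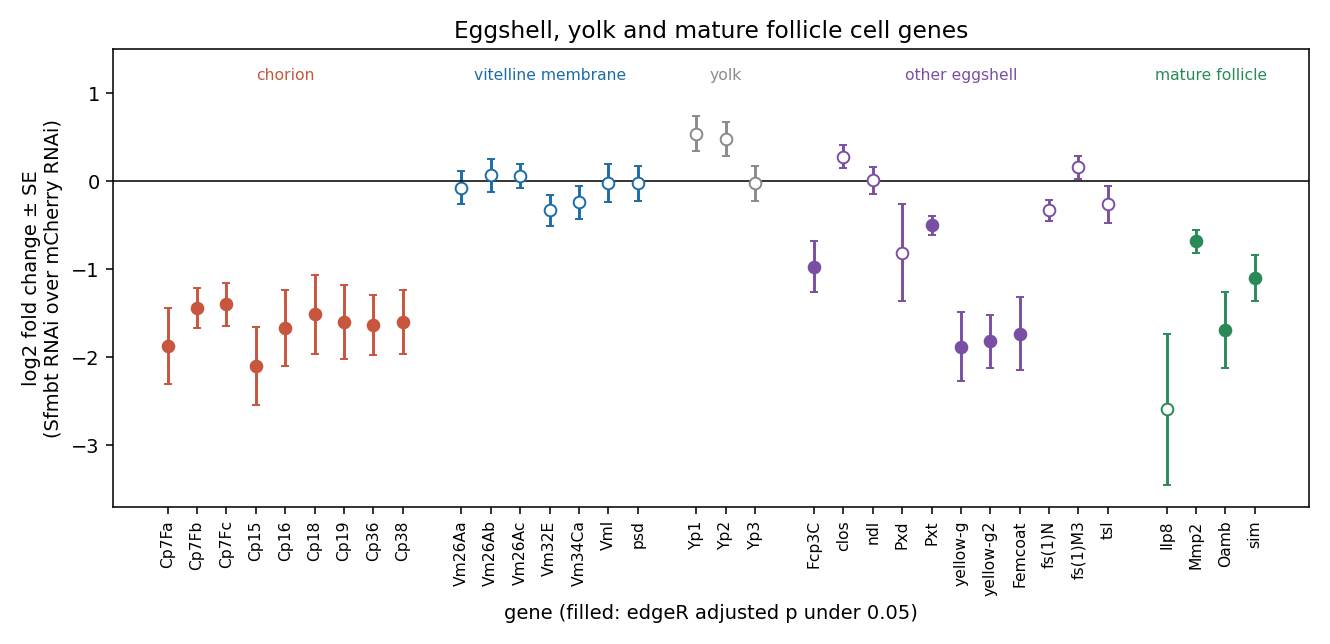
Log2 fold change (log2FC) with its standard error (Sfmbt RNAi over mCherry RNAi, n = 3 against 3) for chorion, vitelline membrane, yolk, other eggshell and mature follicle cell genes, filled where the edgeR adjusted p was under 0.05. The 9 chorion genes lie between −2.10 and −1.40, near yellow-g, yellow-g2 and Femcoat, while the 7 vitelline membrane genes lie between −0.33 and 0.07.

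The 4 listed markers of follicle cells at the end of egg formation had lower mean levels in Sfmbt RNAi. This list, like the others, was chosen with earlier results of these data known. Over all tested genes 19.4% were called as lower. Of 4 listed genes 3 fell, the octopamine receptor gene Oamb, the transcription factor gene sim and the metalloprotease gene Mmp2, with log2FC values of −1.69 ± 0.43, −1.10 ± 0.26 and −0.68 ± 0.13 (SE; edgeR adjusted p = 0.0311, 0.0218 and 0.00858). The remaining gene, Ilp8, named after its values were seen, had 60.2, 90.1 and 96.9 CPM in the control and 2.02, 20.3 and 18.6 CPM in Sfmbt RNAi (edgeR adjusted p = 0.0805). Ilp8 was called as lower by DESeq2 (adjusted p = 0.0139) and without Sfmbt RNAi replicate 1 (edgeR adjusted p = 0.00452). The summed level of the list was 156, 217 and 239 CPM in mCherry RNAi replicates 1 to 3 and 42.3, 92.1 and 73.0 CPM in Sfmbt RNAi replicates 1 to 3. Their part in the chorion result was not tested. Without Sfmbt RNAi replicate 3, mCherry RNAi replicate 2 or mCherry RNAi replicate 3, Oamb and sim lost their calls and 1 gene of the list was called. Oamb also lost its call with no filter and with no scaling factor (edgeR adjusted p = 0.0615 and 0.0519).

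Among 7 genes of early follicle and other somatic gonad cells edgeR called 1, which fell, Fas3 (log2FC −0.40, edgeR adjusted p = 0.041), a cell adhesion gene. Over all tested genes edgeR called 34.7%, with 19.4% as lower. The median log2FC of this list was 0.03. Fas3 lost its call with no scaling factor (log2FC −0.17, edgeR adjusted p = 0.289), with RLE scaling and without any library but Sfmbt RNAi replicate 2 or mCherry RNAi replicate 1. The summed levels of 8 muscle sheath genes ran from 1123 to 1513 CPM in the control and from 589 to 1804 CPM in Sfmbt RNAi, those of 6 hemocyte genes from 25.8 to 36.3 and from 20.8 to 62.5 CPM, and those of 5 fat body genes from 276 to 614 and from 148 to 709 CPM. Both edgeR and DESeq2 called 0 genes of these 3 lists, 2 hemocyte genes had an unadjusted edgeR p under 0.05, and the groups overlapped. Summed gut digestive enzyme transcripts did not overlap, with 183, 1197 and 2062 CPM in the control and 0.719, 171 and 39.2 CPM in Sfmbt RNAi over 11 genes, of which gammaTry was at 0 in every library. The nearest libraries of the groups, at 183 and 171 CPM, were close. Taken singly, Jon65Aiii, Jon65Aiv and Jon99Fi overlapped between the groups and the other tested gut genes did not. Of the 9 gut genes tested edgeR called 0, with 4 at an unadjusted p under 0.05, and DESeq2 called 5; the part of gut tissue in the chorion result was not tested.

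The replication proteins that follicle cells use to amplify chorion DNA are also used in every other dividing or endocycling cell of the ovary, the germline included. The 29 genes listed include regulators that restrain replication, such as geminin, which fell with a log2FC of −0.83 (edgeR adjusted p = 0.000986). Of the 29 genes 27 could be tested, of which 19 fell, 2 rose and 6 did not pass (median log2FC −0.74). Over all tested genes 19.4% were called as lower and 15.2% as higher. The 2 genes that rose were Cdc7 and Myb, with log2FC values of 0.52 and 0.25 (edgeR adjusted p = 0.00941 and 0.0393). The helicase subunit gene Mcm5 fell with a log2FC of −1.47 ± 0.13, the origin recognition genes Orc1 and Orc2 with −1.43 ± 0.13 and −1.36 ± 0.12, and hd (humpty), needed for amplification, with −1.13 ± 0.13 (SE; edgeR adjusted p = 0.000316 to 0.00111). Orc1 had a mean of 164 ± 1.04 CPM in the control and 61.0 ± 10.5 CPM in Sfmbt RNAi (SD, n = 3), a tighter spread than that of any chorion gene. The kinase regulator gene chif and the cell cycle transcription factor genes Dp and E2f1 were not called, with log2FC values of 0.05, −0.10 and 0.13 (edgeR adjusted p = 0.771, 0.388 and 0.237), and E2f1 was called as higher with no scaling factor (0.36, edgeR adjusted p = 0.0254). Orc3 and SuUR had 0 fragments in every library. In each case another gene ID of the table has the same span, and fragments that fit more than 1 gene were not counted.

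Among 15 genes of follicle cell transcription and signalling 3 rose, 2 fell and 10 did not pass (median log2FC 0.09), against 34.7% of all tested genes called in either direction. The ecdysone-induced transcription factor gene Eip74EF and the ecdysone receptor gene EcR fell with log2FC values of −0.83 and −0.52, from 44.0 ± 4.58 to 24.8 ± 2.88 CPM for Eip74EF and from 66.2 ± 2.89 to 46.0 ± 1.02 CPM for EcR (SD, n = 3; edgeR adjusted p = 0.00212 and 0.00127). The receptor gene N and the ecdysone receptor coactivator gene tai rose with log2FC values of 0.73 and 0.46 (edgeR adjusted p = 0.00201 and 0.00259). Of 10 germline genes measured 4 rose and 3 fell, beside 15.2% called as higher and 19.4% as lower over all tested genes. The log2FC was 0.88 and 0.78 for aub and vas, and −0.92 and −0.78 for gnu and plu (edgeR adjusted p = 0.000309 to 0.00635).

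Genes beside the clusters share the chromosomal neighbourhood of the amplified DNA. Within 20 kb of either cluster lay 17 other genes, of which 14 could be tested and 2 were called, both lower and both at the X cluster. Over all tested genes 34.7% were called and 19.4% were lower. lncRNA:CR43834, on the same strand and 0.883 kb beyond the end of Cp38, fell from 9.58 to 3.60 CPM (log2FC −1.41 ± 0.34 SE, edgeR adjusted p = 0.017). Es2, 7.54 kb before Cp7Fa, fell from 37.6 to 25.2 CPM (log2FC −0.58 ± 0.13 SE, edgeR adjusted p = 0.0158). Leaving out mCherry RNAi replicate 2 or 3 ended both calls (edgeR adjusted p = 0.0516 to 0.0649), and with no scaling factor Es2 was not called (log2FC −0.34, edgeR adjusted p = 0.109).

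The other X neighbours were not called in the TMM fit of all 6 libraries. The pteridine synthesis gene Sptr, CG12116 and CG15347 before the cluster had log2FC values of −0.32, −0.30 and −0.41 (edgeR adjusted p = 0.0527, 0.433 and 0.318), and Sptr was called as lower with no filter and without Sfmbt RNAi replicate 3 (edgeR adjusted p = 0.0489 and 0.0225). The deubiquitinase gene otu and CG33181 after it had 0.11 and 0.13 (edgeR adjusted p = 0.594 and 0.232), CG33181 was called as higher with no scaling factor (0.36, edgeR adjusted p = 0.0191), and the T-box gene org-1, at a mean of 0.208 CPM in the control, had 0.80 (edgeR adjusted p = 0.217). At the 3L cluster CG43965, 1.02 kb before Cp18 on the other strand, had 37.5 CPM in the control and 17.7 CPM in Sfmbt RNAi. Its log2FC of −1.08 ± 0.38 (SE) had an edgeR adjusted p = 0.0805, and it was called by DESeq2. The muscle gene Prm, 0.259 kb beyond Cp16, CG6511, CG32022 and the secretory pathway gene SrpRbeta had log2FC values of −0.05, −0.01, −0.20 and −0.22 (edgeR adjusted p = 0.104 to 0.973).

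CG33223 spans the whole X cluster on the opposite strand. It had 354 fragments over the 6 libraries, against 90949 for the least abundant chorion gene Cp7Fa, and a log2FC of 0.09 ± 0.26 (SE; edgeR adjusted p = 0.823). Fragments were counted by strand, so those of the chorion genes were kept apart from it. No other gene of the table overlapped a chorion gene.

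**Figure D4:**
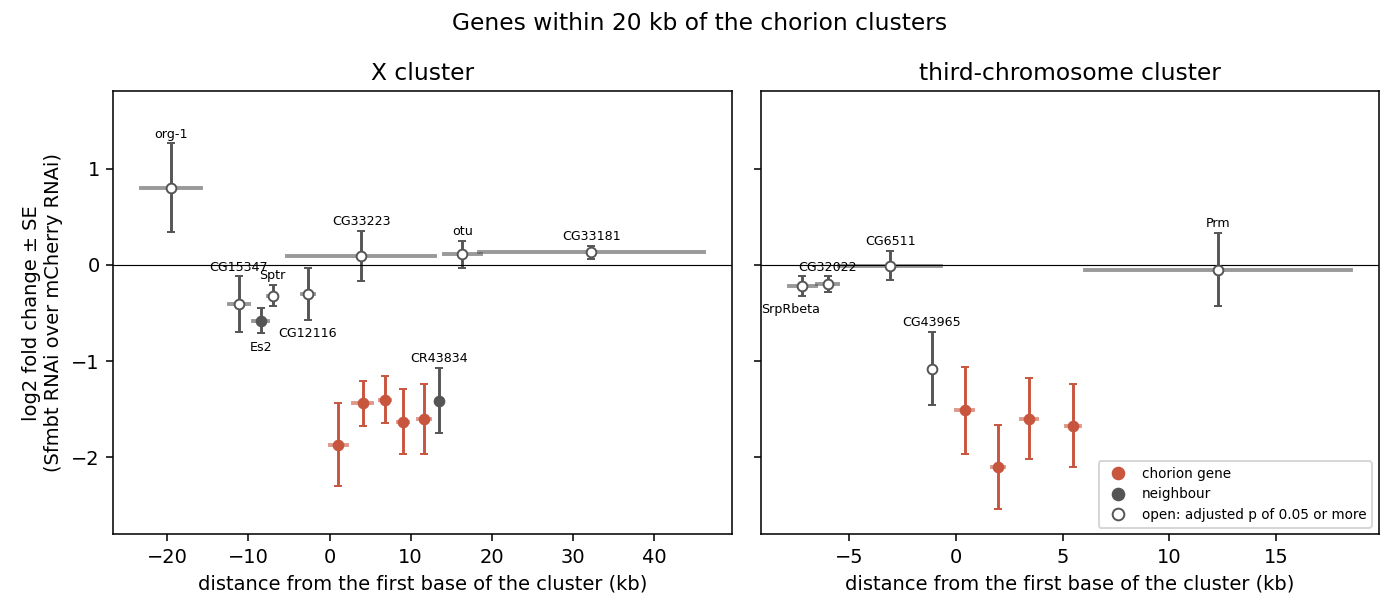
Log2 fold change (log2FC) with its standard error (vertical bars) of chorion genes (red) and of tested genes within 20 kb (grey), by distance from the first base of each cluster in kb, with horizontal bars for the span of each gene and filled points for an edgeR adjusted p under 0.05. Beside the chorion genes, only lncRNA:CR43834 and Es2 are filled.

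The genes whose levels followed the summed chorion level most closely were Femcoat, drd, Det, CG31926 and pwn, by Pearson's r of log2(CPM + 0.5) over the 6 libraries among 6645 genes with a mean of at least 10 CPM. Their r was 0.997 to 0.999, and 0.983 to 0.994 after subtraction of the group means. The chorion genes themselves had 0.978 to 0.998 with the sum that contains them. These are descriptions over 6 libraries in 2 groups, with no test. Femcoat fell from 457 ± 104 to 138 ± 65.8 CPM, CG31926 from 228 to 63.6 CPM, pwn from 23.8 to 6.65 CPM, drd from 79.8 to 40.0 CPM, and Det, a chromosomal passenger protein gene, from 29.2 to 22.3 CPM. In that order the edgeR adjusted p was 0.0251, 0.025, 0.0186, 0.00826 and 0.0188. The genes were picked by likeness to a sum that already differed between the groups. A fall was thus built into the choice, and these p values add no support. Without mCherry RNAi replicate 2 or 3 all of these calls but that of drd were lost. Femcoat, CG31926 and pwn also lost theirs without Sfmbt RNAi replicate 3 (edgeR adjusted p = 0.0858 to 0.105), Femcoat and CG31926 with no filter, and Det with no scaling factor (log2FC −0.16, edgeR adjusted p = 0.277).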

How the data were processed

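RNA-seq counts per gene were deposited by the authors as 1 table. Per the file headers they were made with featureCounts 1.6.3 on the BDGP6.28 Ensembl gene model, with reverse-strand counting of read pairs whose ends both mapped, and per the submitters' processing notes from STAR 2.7.2a alignments. By its defaults, fragments with several map positions or several genes were left uncounted. Its column of exon lengths was used for CPM per kb. The control was taken to be columns C1 to C3 and A1 to A3, by elimination, as Sfmbt RNAi; the labels do not explain the letters. No library column was left out. The deposited peak table holds RPM values, rank scores, a log2 fold change and an adjusted p-value per gene and mean TPM per RNA group, all made by the authors; per the submitters' processing notes, Bowtie2 and deepTools 3.5.0 were used, and the peak caller is not given in the sources used here. Only its RPM values, positions and gene assignments were used.

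Of 17768 gene IDs 17671 were matched to a symbol. edgeR 4.0.16 in R 4.3.3 was run on all genes (filterByExpr with a minimum count of 10, TMM, robust dispersions, a quasi-likelihood F-test, the group being its only term, Benjamini-Hochberg at 0.05), and was tested on simulated data. CPM are TMM-normalised; standard errors come from the F statistic. Sums and ratios per library were compared by exact permutation. Alternatives were RLE scaling, no scaling factor, TMM without the chorion genes, other filters, DESeq2 1.42.0, the replicate number as a block, each library left out, and, for ratios, the mean of log2 CPM or Cp15 and Cp18 alone as late. Named genes were the members, tested neighbours within 20 kb, the called members of each list with the largest changes (up to 4), up to 3 abundant uncalled members of the vitelline membrane, yolk and amplification lists, the 5 genes most like the chorion sum and Sfmbt. Cdc7, Myb, geminin and the gut genes Jon65Aiii, Jon65Aiv and Jon99Fi were added after the values were seen. The uncalled gene osk and the undetected genes gammaTry, Orc3 and SuUR were also named outside this rule. The members and lists were chosen with earlier results of these data known. dec-1 and nos were listed but not analysed here, because no counted gene was matched to those symbols.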

Additional observations from a re-analysis of the deposited data

How the results depend on the processing

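All 9 chorion genes were lower in Sfmbt RNAi under each of the 13 alternatives. Leaving out 1 library gave 2 to 9 chorion genes called and 1756 to 3295 genes called in all. The log2 fold changes then ranged from −2.43 to −1.56 for Cp7Fa, −2.07 to −1.34 for Cp36, −2.06 to −1.30 for Cp38, −2.42 to −1.70 for Cp15, −2.10 to −1.32 for Cp16, −1.83 to −1.13 for Cp18 and −2.07 to −1.28 for Cp19. Calls were lost with no filter for Cp16, Cp18 and Cp19 (−1.68, −1.52 and −1.61) and with no scaling factor for the same genes (−1.43, −1.26 and −1.36). Cp18 also lost its call with RLE scaling (−1.47). The cause was not tested, except that no filter adds genes to the adjustment and a library left out removes a sample. Leaving out 1 library gave 2 to 5 called other eggshell genes, 1 to 4 mature follicle cell genes, 19 to 20 amplification genes, 5 to 7 germline genes and 4 to 5 follicle transcription and signalling genes, settings chosen after the data were seen. With the replicate block 1 vitelline membrane gene, 2 early follicle genes and 6 gut genes were called, and DESeq2 called 2 yolk and 5 gut genes; with RLE scaling 0 early follicle genes were called.

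Libraries with the same number correlated in their deviations from the group means by 0.432, 0.305 and 0.0729 for numbers 1 to 3, from log2 CPM with a prior count of 2. The last is below the 0.1 required, so the numbers were taken as names only, but it depends on the definition. With a prior count of 0.5 it was 0.103, above the limit, and over 8 definitions it ran from 0.00945 to 0.103. Sfmbt RNAi replicate 2 correlated more with mCherry RNAi replicate 3 than with replicate 2 (0.346 against 0.305), and Sfmbt RNAi replicate 3 more with replicate 2 (0.168). With the replicate block CG43965 and Ilp8 were called (edgeR adjusted p = 0.0121 and 0.0467), and 2959 genes were called in place of 3350, and all 9 chorion genes (edgeR adjusted p = 0.00493 to 0.00981). Pairing by number leaves each mean difference of a sum or ratio the same by arithmetic; exact sign-flip permutation tests of the 3 pairs gave p = 0.25, the smallest possible, for the summed level and the chorion to vitelline membrane ratio and p = 0.5 for the X to 3L and early to late ratios. With 3 libraries a group no exact test of a ratio can pass 0.05, so those tests say nothing about stability. Low depth is no limit for the chorion genes, which had 3254 fragments or more in each library.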

Other observations

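The deposited peak table lists 351 distinct Pho and Sfmbt summits, from chromatin precipitated with anti-Pho from yw ovaries and with anti-GFP from GFP-Sfmbt knock-in and untagged Oregon-R ovaries. Of these summits 0 were assigned by the authors to a chorion gene. The nearest summit to the X cluster, at X:8465082 and assigned to Sptr in the authors' deposited table, lay 5.81 kb before Cp7Fa. Its values there were 6.02 RPM for Pho, 1.65 RPM for GFP-Sfmbt and 0.168 RPM for untagged chromatin, each the authors' single value per group of precipitated samples. The nearest summit to the 3L cluster, assigned to Doc3, lay 272 kb from Cp16. For comparison, the median distance from a tested gene to its nearest summit was 120.0 kb on X, with 73 summits, and 145 kb on 3L, with 63 summits.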
